A study of Mus musculus with 3 samples.

Results

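Transcripts of the interleukin 17 (IL17) receptor chains Il17ra and Il17rc, of the cytokines Il17a and Il17f, and of Trdc, the constant segment of the T cell receptor delta chain, were followed across the cells of the mouse liver. These are 5 of the 31053 genes counted. They were chosen because the Il17ra level was far higher in endothelial cells at day 21 than in the other libraries, so that difference is described here and not tested. The series holds 3 libraries of non-parenchymal liver cells, the cells other than hepatocytes, from female BALB/c mice. The control mice received PBS and are labelled as 8 weeks old, with no day of collection given. The other libraries come from mice that received 4T1 mammary carcinoma cells orthotopically, collected after 4 days (labelled 8 weeks old) or 21 days (labelled 11 weeks old). Age and day of tumour growth therefore cannot be told apart at day 21. No genotype or transgene is given, and the labels do not say how many mice make up a library.

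IL17A and IL17F are cytokines that signal through a receptor built from the IL17RA and IL17RC chains. IL17RA is the chain shared by most members of the family and is known from leukocytes and tissue cells alike, whereas IL17RC is mainly known from epithelial and stromal cells. The adaptor ACT1, encoded by Traf3ip2, links the receptor to TRAF6, NF-kB and C/EBP factors, and the target genes include neutrophil attractants and endothelial adhesion molecules. Gamma delta T cells, which carry a receptor made of a gamma and a delta chain in place of alpha and beta, are a known source of IL17A in the liver.

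With 1 library per group there is no spread between samples and no test. Every interval below is a 95% interval that covers counting error only. Levels are unique molecular identifiers (UMIs, counted RNA molecules) per 1000000 UMIs (CPM), taken from the pooled cells of each class and library, and a gene is compared in 2 libraries only where both hold at least 50 cells of the class. A gene is called measured with at least 20 UMIs over both libraries, and higher or lower when the log2 ratio reaches 1, a 2-fold difference.

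The libraries held 6489 (control), 9175 (day 4) and 12338 (day 21) barcodes, with between 27191082 and 51913215 UMIs, and 4694, 5414 and 9945 cells were kept. The median kept cell held 4179, 4439.5 and 3013 UMIs. Between 13 and 32 barcodes were shared by any pair of libraries, among which 5 to 19 were kept in both. The day 21 library stood apart: 3860 of its cells were neutrophil-like, against 56 in the control, and neutrophil RNA was found in its other classes too. In endothelial-like cells the 13 neutrophil markers summed to 12.3 CPM in the control, 12.6 on day 4 and 2958 on day 21. All 13 were detected at day 21, while Ly6g and Mmp8 were at 0 in the control and Camp was at 0 at day 4. Of the endothelial markers 16 of 16 were detected in each library, with a sum of 25811, 26715 and 27594 CPM. Markers of several other leukocytes were also highest at day 21 in this class. Those of monocytes and macrophages summed to 41.9, 46.3 and 245 CPM, and those of neutrophil precursors to 0.119, 0.453 and 94.8. Those of basophils and mast cells summed to 75.0, 89.2 and 172, with Mcpt8, Cpa3, Fcer1a, Ms4a2 and Prss34 at 0 in the control. Those of T cells summed to 6.67, 8.16 and 27.9. Markers of natural killer cells (268, 289 and 276 CPM) and of plasma cells (227, 277 and 198 CPM) were highest at day 4. The part of these markers' cells in the Il17ra level of the class was not tested.

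Il17ra encodes the shared receptor chain and lies on chromosome 6 at 120463247 to 120487559 (GRCm38, plus strand). In the control and at day 4 it was mainly a leukocyte transcript, high in neutrophil-like cells and low in endothelial-like and stellate-like cells. At day 21 the endothelial-like, stellate-like, lymphocyte, dendritic, Kupffer-like and neutrophil-like classes all lay between 58.8 and 113 CPM. Over all barcodes it had 629 UMIs in the control, 1190 on day 4 and 4515 on day 21.

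In endothelial-like cells Il17ra stood at 4.65 CPM in the control (39 UMIs, interval 3.31 to 6.35, 1425 cells). At day 4 it was 5.21 CPM (46 UMIs, 3.82 to 6.95, 1663 cells). At day 21 it reached 113 CPM (313 UMIs, 101 to 127, 1021 cells). The first 2 intervals overlap and the third lies far above both. The day 21 level was 24.1-fold the control level (17.4 to 34.9), a log2 ratio of 4.59 (4.12 to 5.13) where the median of all 11137 measured genes was 0.10. A higher ratio was found for 34 measured genes, a rank that follows from the choice of Il17ra for this difference. Day 4 over control gave 0.16 (−0.48 to 0.82).

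The share of endothelial-like cells with an Il17ra UMI was 2.46% in the control, 2.59% on day 4 and 24.5% on day 21, although the median cell held 5791, 5276 and 2660 UMIs. After each cell was thinned to 1000 UMIs, which left out 16, 27 and 30 cells, the shares were 0.50%, 0.67% and 10.8%. At day 21, 195 cells held a single Il17ra UMI and 55 held more, so the signal was spread over many cells. Sinusoidal cells that carried more pericentral than periportal markers had 3.77, 5.69 and 117 CPM, and those with more periportal markers had 5.04, 5.46 and 109 CPM. Day 21 over control was 4.88 (3.97 to 6.12) in the first group and 4.42 (3.84 to 5.10) in the second. Day 4 over control was 0.57 (−0.75 to 2.00) and 0.11 (−0.68 to 0.93), so no order of control and day 4 is read. Both groups are parts of the cells whose level chose the gene, so these values are a description.

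The endothelial-like cells of day 21 clustered apart from those of the other libraries. Of the 1021 cells, 947 were in cluster 22, led by Cnmd, Rasd1 and Rab3b, which held 4 control and 2 day 4 cells. In the control 1053 of 1425 cells were in cluster 1, led by Tox2, Lama4 and Adam23. The few day 21 cells in cluster 1 (25 cells, 2 Il17ra UMIs) gave 44.0 CPM, with an interval from 5.32 to 159 that allows no more than a statement of its order of size. A shallow cluster left unnamed, number 7, in which 11 endothelial markers were detected, had 2.62, 3.62 and 64.8 CPM (3, 3 and 13 UMIs).

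**Figure D1:**
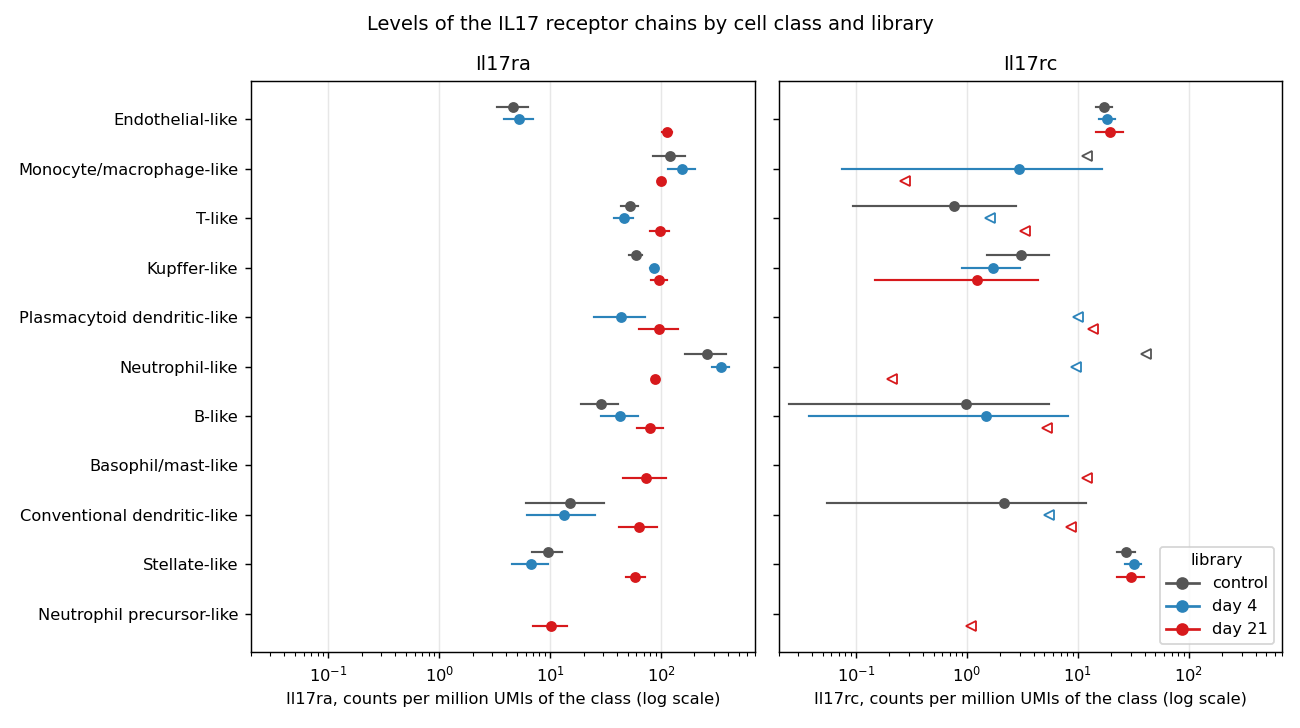
Levels of Il17ra and Il17rc in every class with at least 50 cells, in CPM on a log axis, with 1 point per library and bars for the 95% Poisson interval. Open triangles mark the upper limit where no UMI was counted. Il17ra in endothelial-like cells sits near 5 CPM in the control and on day 4 and at 113 CPM on day 21, while the Il17rc points of the same class lie together between 17.2 and 19.5 CPM.

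Stellate-like cells, the vitamin A-storing pericytes of the liver, also had their highest Il17ra level at day 21. It was at 9.57 CPM in the control (43 UMIs, 474 cells), 6.76 at day 4 (30 UMIs, 564 cells) and 58.8 at day 21 (101 UMIs, 324 cells). The day 21 interval, 47.9 to 71.5, does not meet those of the control (6.93 to 12.9) or day 4 (4.56 to 9.64). Day 21 over control was 6.11-fold, a log2 ratio of 2.61 (2.09 to 3.17), against a median of 0.08 over 11149 measured genes. A small stellate-like cluster that also holds 12 Kupffer markers (31, 32 and 15 cells) carried 21 of the 43 control UMIs. Different clusters held most of the class: cluster 12 held 366 of the 474 control cells, at 5.51 CPM, and cluster 30 held 236 of the 324 day 21 cells, at 61.0 CPM, with 0 control cells and 1 day 4 cell in it. Neutrophil markers summed to 7.35, 13.1 and 4784 CPM in this class.

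Lymphocytes and dendritic cells differed less. In T-like cells Il17ra was at 52.4, 46.0 and 97.7 CPM (136, 105 and 107 UMIs), a log2 ratio of 0.90 (0.52 to 1.28) for day 21 over control. In B-like cells it was at 28.6, 42.8 and 80.2 CPM (29, 29 and 56 UMIs), a ratio of 1.47 (0.81 to 2.18). Conventional dendritic-like cells held 7, 9 and 27 UMIs, the last of which are 63.0 CPM, and their ratio was 2.00 (0.83 to 3.51). Their share of cells with an Il17ra UMI after thinning was 7.32% for the control (3 among 41 cells) and 4.71% for day 21 (4 among 85), the opposite order to the level, so no order is read from it. The ratio passed 2-fold in 2 of these 3 classes, B-like and conventional dendritic-like, where 8.59% and 10.2% of all measured genes were higher by that much. Their day 21 cells were also shallower: the median B-like cell held 2896.5 UMIs in the control and 1438 at day 21, and the median conventional dendritic-like cell held 9139 and 4533.

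Kupffer-like cells, macrophages that reside in the sinusoids, already held Il17ra in the control. They stood at 59.5 CPM (215 UMIs, 51.8 to 68.0), 85.6 (593 UMIs, 78.9 to 92.8) and 96.5 (158 UMIs, 82.0 to 113). The day 4 and day 21 intervals overlap and both lie above that of the control. Day 21 over control was 0.70, or 1.62-fold, with an interval from 1.31-fold up to the 2-fold line, and day 4 over control was 0.52 (0.30 to 0.76). The day 4 difference was not kept after thinning, which gave −0.25 (−0.88 to 0.42).

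Neutrophil-like cells went the other way. Il17ra was at 258 CPM in the 56 control cells (23 UMIs, 164 to 387), 345 in the 195 day 4 cells (133 UMIs, 289 to 409) and 88.4 in the 3860 day 21 cells (1541 UMIs, 84.0 to 92.9). Day 21 over control was −1.58 (−2.14 to −0.89), where the median of all 9158 measured genes was −1.20. S100a8 and S100a9, which encode calprotectin, stood at 67033 and 88037 CPM in control neutrophil-like cells and at 191637 and 211096 CPM at day 21. CPM is a share of all UMIs, and the part of these genes in the Il17ra difference was not tested. The clusters of the libraries differ: 51 control and 167 day 4 cells were in cluster 16, which held only 5 day 21 cells.

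Within day 21 the clusters of the neutrophil lineage had very different levels. Precursor-like cells led by the primary granule gene Elane were at 10.1 CPM (34 UMIs, 256 cells). Cells led by the secondary granule genes Camp, Ngp and Ltf were at 38.4 CPM (945 cells), and those led by Stfa genes at 76.1 CPM (238 cells). The clusters led by Retnlg and Mmp8 and by Il1b and Cxcr2, genes of later neutrophils, stood at 118 CPM (1156 cells) and 204 CPM (1516 cells). No 2 of these 5 intervals overlap, so the class level depends on which clusters make it up.

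Among the other myeloid cells, cluster 20, led by Tppp3, Ace and Vcan with the monocyte genes Ccr2 and Ms4a4c, held Il17ra at 205, 210 and 228 CPM (24, 22 and 586 cells). These levels did not differ beyond their intervals. Cluster 28 took the monocyte/macrophage-like name by marker count but was led by Bex6, Muc13 and Hoxa9, and it stood at 66.5 CPM in 954 day 21 cells. As it makes up most of that class at day 21, the class as a whole is not compared. Plasmacytoid dendritic-like cells had 43.9 CPM at day 4 (55 cells) and 96.4 at day 21 (79 cells), a log2 ratio of 1.12 (0.18 to 2.13).

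**Figure D2:**
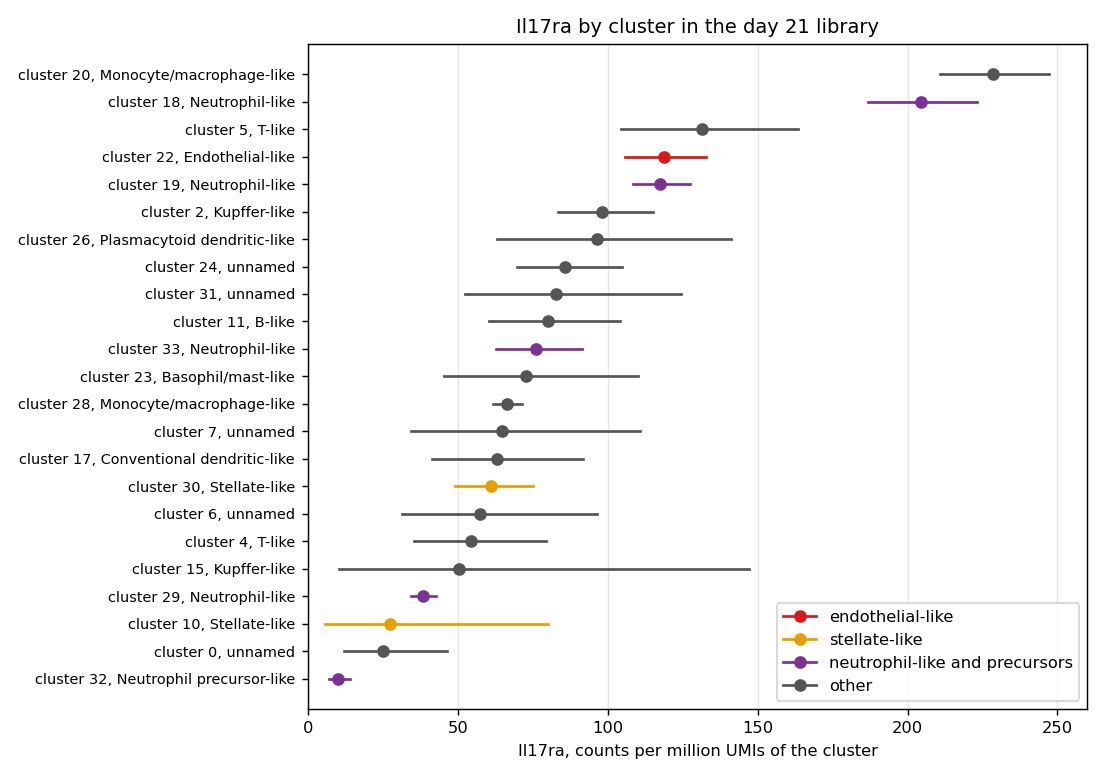
Il17ra level in CPM in each day 21 cluster with at least 50 cells, with bars for the 95% Poisson interval. The endothelial-like cluster 22 (119 CPM) lies beside the neutrophil-like cluster 19 (118 CPM), and the precursor-like cluster 32 is the lowest of the neutrophil lineage at 10.1 CPM.

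For day 21, the level of each gene was also set against its own level in the pooled neutrophil-like cells of that library. Endothelial-like cells held S100a8 at 0.547% of the neutrophil-like level, S100a9 at 0.672%, Ngp at 0.502% and Retnlg at 0.798%. The receptor genes Csf3r and Cxcr2 were at 3.27% and 2.89%. Il17ra was at 128% of the pooled level of 88.4 CPM, while single neutrophil-like clusters reached 118 and 204 CPM (above). In stellate-like cells S100a8 was at 0.957% and Il17ra at 66.6%, and in T-like cells they were at 0.462% and 111%. Only 12 day 21 endothelial-like cells had no UMI of S100a8, S100a9 or Ptprc, too few to give a level. A restriction to cells without a UMI of Ptprc, Csf3r, Cxcr2 and Retnlg, chosen after seeing the data, could be run. It was among 12 alternatives that gave 4.11 to 4.74 for day 21 over control in this class. Cells with S100a8 or S100a9 UMIs stay in it. The part of neutrophil RNA in the Il17ra level of these classes was not tested.

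**Figure D3:**
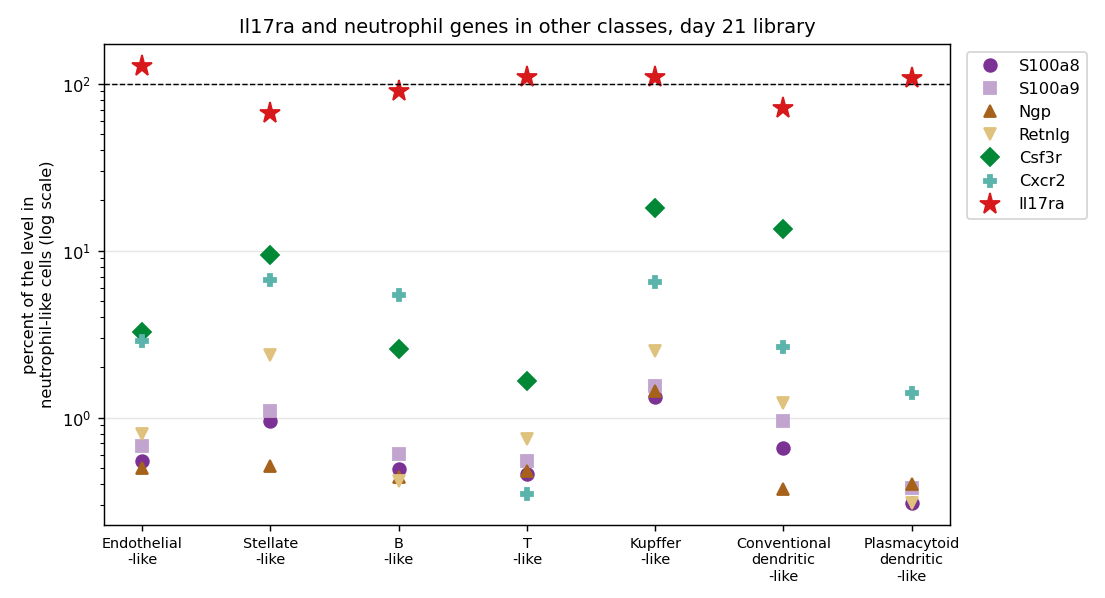
Level of neutrophil genes and of Il17ra in each day 21 class as a percentage of the level in day 21 neutrophil-like cells, on a log axis with a dashed line at 100%. A gene without a UMI in a class is not drawn. In endothelial-like cells S100a8, S100a9, Ngp and Retnlg lie under 1% and Il17ra at 128%.

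Il17rc, the partner chain, lies on chromosome 6 at 113471427 to 113483140 (GRCm38, plus strand). It was found where Il17ra had been low in the control: in endothelial-like, stellate-like and cholangiocyte-like cells. In endothelial-like cells it stood at 17.2 CPM in the control (144 UMIs), 18.4 at day 4 (162 UMIs) and 19.5 at day 21 (54 UMIs). The intervals, 14.5 to 20.2, 15.6 to 21.4 and 14.7 to 25.5, overlap throughout. Day 21 over control was 0.20 (−0.29 to 0.65), an interval that leaves room for a difference of less than 2-fold in either direction. The share of cells with an Il17rc UMI, 9.61%, 9.14% and 5.19%, followed the depth, and was 1.63%, 1.77% and 1.31% after thinning.

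In stellate-like cells Il17rc was at 27.2 CPM in the control (122 UMIs), 31.8 at day 4 (141 UMIs) and 30.3 at day 21 (52 UMIs). Day 21 over control was 0.17 (−0.34 to 0.64), again with overlapping intervals. Cholangiocyte-like cells, the lining of the bile ducts, had 4, 5 and 9 UMIs in 18, 21 and 20 cells, too few cells to compare. Kupffer-like cells had 11, 12 and 2 UMIs (3.05, 1.73 and 1.22 CPM). No Il17rc UMI was counted in the 3860 day 21 neutrophil-like cells, which allows a level of up to 0.172 CPM, and T-like cells held 2, 0 and 0 UMIs. The endothelial-like and stellate-like classes thus held transcripts of both chains in all 3 libraries, while the leukocyte classes held Il17ra with little or no Il17rc. Cells with both in the same droplet numbered 5 of 1425, 7 of 1663 and 13 of 1021 endothelial-like cells. Il17ra was held by 35, 43 and 250 of these cells and Il17rc by 137, 152 and 53. Whether both chains met more often than these separate counts give was not tested.

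Over all barcodes Il17rc had 356, 415 and 148 UMIs, and over all kept cells it stood at 13.4, 12.6 and 2.76 CPM. The library level was lower at day 21 although neither main class differed beyond its interval. Endothelial-like cells were 1425 of 4694 kept cells in the control and 1021 of 9945 at day 21, and stellate-like cells were 474 and 324. A further receptor chain, Il17rd, was measured in endothelial-like cells at 13.1, 12.1 and 7.60 CPM, with a day 21 over control ratio of −0.76 (−1.54 to −0.10). Of the 3 receptor genes measured there, Il17ra, Il17rc and Il17rd, 1 was higher at day 21 and none was lower, where 7.82% of all 11137 measured genes were higher and 5.08% lower, and the choice of Il17ra fixes that count.

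The stretch before the start of Il17rc is shown, as no promoter was matched for Il17ra (RefSeq start, GRCm38.p6, chr6:113471205-113471426, plus strand, ending before the first annotated base). Capitals mark matches to the NF-kB core GGGNNNNNCC on either strand, 3 matches of which a pair overlaps, and 41.5% of the 32851 promoters hold a match in a window of this length.
Il17rc: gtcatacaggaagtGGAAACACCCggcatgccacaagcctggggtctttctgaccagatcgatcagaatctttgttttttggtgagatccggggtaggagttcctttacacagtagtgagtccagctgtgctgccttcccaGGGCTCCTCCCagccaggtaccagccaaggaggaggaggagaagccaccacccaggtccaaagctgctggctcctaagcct

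The ligands were almost undetected. Il17a (chromosome 1, 20730905 to 20734496, plus strand) had 1 UMI in the control, 0 on day 4 and 1 on day 21 over all barcodes. Il17f (chromosome 1, 20777146 to 20790617, minus strand) had 1, 0 and 3. A count of 0 at day 4 allows a level of up to 0.107 CPM over the kept cells. None of the 6 IL17 family cytokines on the list reached 20 UMIs over the compared libraries in the endothelial-like, stellate-like, Kupffer-like or T-like class. A difference in ligand RNA between the libraries was therefore not detectable at this depth.

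Both cells with an Il17a UMI were T cells by their other transcripts. The control cell (4933 UMIs) also held 21 UMIs of Cd3 genes, which encode the signalling chains of the T cell receptor, and 4 of Trdc. The day 21 cell (1410 UMIs) held 4 of Cd3 genes, 1 of Trdc and 1 of Il17ra. The kept cells with an Il17f UMI were an endothelial-like cell in the control, and a B-like cell and a cell of cluster 28 at day 21. None of these cells had a UMI of Cd3 genes or Trdc.

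Trdc marks gamma delta T cells, although natural killer and related cells can also carry its transcript. It lies on chromosome 14 at 54142851 to 54148868 (GRCm38, plus strand), where the counted genes Trdv5 and Gm43434 overlap it on the other strand. No source says whether strand was used in counting, so reads of these genes may not be separable. In T-like cells Trdc stood at 104 CPM in the control (269 UMIs, 91.6 to 117, 709 cells), 149 at day 4 (341 UMIs, 134 to 166, 579 cells) and 42.0 at day 21 (46 UMIs, 30.8 to 56.0, 601 cells). The 3 intervals do not overlap, and day 21 was the lowest. These UMIs lay in 55, 66 and 23 cells, with up to 21, 21 and 8 in a cell. The intervals treat UMIs as independent and do not cover this clumping. Day 21 over control was −1.29 (−1.79 to −0.85), where the median of all 8734 measured genes was 0.15 and 144 genes had a lower ratio. Neutrophil markers summed to 19.7, 121 and 2516 CPM in T-like cells, and their part in the Trdc difference was not tested.

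Day 4 over control was 0.53 (0.29 to 0.76) for Trdc, but it was −0.27 without the filter on cells and −0.33 when each cell was classed by its own markers. The direction at day 4 thus depends on which cells are counted as T-like. The 12 markers of natural killer cells summed to 1373, 3017 and 1463 CPM in T-like cells, highest at day 4 as well. The share of T-like cells with a Trdc UMI was 7.76% in the control, 11.4% on day 4 and 3.83% on day 21, at a median depth of 3637, 3831 and 1724 UMIs. After thinning it was 4.56% (3.12 to 6.41), 6.95% (4.99 to 9.38) and 3.25% (1.94 to 5.09), and each of these intervals overlaps the others. In endothelial-like cells, which should lack the gene, 0, 0 and 1 cells held a UMI (0% and 0%, which allow up to 0.211% and 0.180%, and 0.098%).

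**Figure D4:**
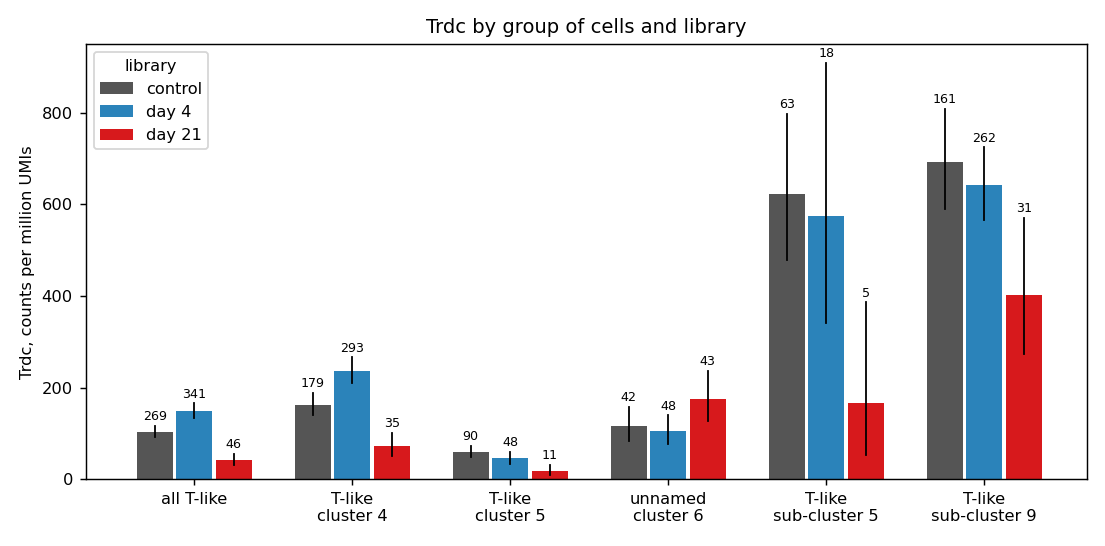
Trdc level in CPM in the T-like class, its clusters, cluster 6 and 2 sub-clusters of the T-like cells in each library, as bars from 0 with lines for the 95% Poisson interval and the UMI count above each bar. The T-like bars stand at 104, 149 and 42.0 CPM, and cluster 6 stands above 100 CPM in each library.

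The T-like class is made of clusters 4 and 5. Cluster 4, led by Xcl1, Cxcr6 and Klra5, had Trdc at 163, 238 and 73.1 CPM (179, 293 and 35 UMIs). Cluster 5, led by Dapl1, Tcf7 and Lef1, genes of resting T cells, had 60.0, 45.7 and 17.9 CPM (90, 48 and 11 UMIs). Both were lower at day 21 than in the control, while at day 4 the first was higher (0.54, 0.27 to 0.82) and the second stood at −0.38 (−0.93 to 0.13). Cluster 6 was left unnamed between T and natural killer markers and was led by Cma1 and the cytotoxic granule genes Gzma and Prf1. It had Trdc at 117, 106 and 176 CPM (42, 48 and 43 UMIs). Its ratio was 0.59 (−0.06 to 1.23) for day 21 over control. These UMIs lay in 27, 21 and 22 cells, and the cell with the most held 4, 13 and 14 of them. T-like cells held 82.5%, 86.5% and 43.4% of the Trdc UMIs of the kept cells, and cluster 6 held 12.9%, 12.2% and 40.6%.

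Other receptor genes were read in the Trdc-positive T-like cells. A constant gamma chain gene (Tcrg-C) had a UMI in 35 of 55 such cells in the control, 42 of 66 on day 4 and 10 of 23 on day 21 (63.6%, 63.6% and 43.5%). In the T-like cells without a Trdc UMI these shares were 21.7%, 28.5% and 19.7%. Trac, the constant segment of the alpha chain, went the other way, with 32.7%, 28.8% and 17.4% of Trdc-positive cells against 71.7%, 70.4% and 46.4% of the others. In cluster 6, 4 of 27, 5 of 21 and 5 of 22 Trdc-positive cells held a Cd3 UMI.

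Clustering the T-like cells alone split the Trdc signal. Sub-cluster 5 carried gamma delta markers over the 3 libraries pooled, among them Tcrg-C1, Trgv2, 5830411N06Rik, Sox13, Blk and Il23r. Its leading genes were 5830411N06Rik, Blk and Calca. Among genes of the type 17 programme, Il23r had 8, 1 and 0 UMIs there, Sox13 had 5, 2 and 0, and Blk had 23, 5 and 3. The gene 5830411N06Rik had 26, 20 and 12 UMIs. Sub-cluster 5 held 23, 10 and 15 cells (3.24%, 1.73% and 2.50% of T-like cells) and 63, 18 and 5 Trdc UMIs, and both Il17a-positive cells were in it. Sub-cluster 9, led by Gzma, Ccl4 and Ncr1, held 70, 103 and 49 cells and 161, 262 and 31 Trdc UMIs, the largest part of the T-like signal in each library. The delta variable gene Trdv4 had 4, 17 and 2 UMIs in that group. Over the 3 libraries pooled, Tcrg-C1 and Trgv2 stood at 131 and 118 CPM there, beside 154 and 105 CPM in sub-cluster 5. At day 21, 204 and 220 of the 601 T-like cells were in 2 groups led by neutrophil genes such as S100a8, S100a9 and Camp.

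Other receptor genes of the T-like class were read from lists chosen with earlier results known. For day 21 over control, 6.5% of all measured genes were higher and 3.14% lower. Of 5 gamma delta receptor genes measured, 0 were higher and 2 lower, with a median of 0.05: Trgv2, a gamma variable gene (50.9 and 20.1 CPM, −1.31, −2.06 to −0.68), and Trdc. The constant genes did not follow, with Tcrg-C4 at 37.0 and 63.9 CPM (0.79, 0.32 to 1.25) and Tcrg-C1 at 44.3 and 59.4 CPM (0.43, −0.04 to 0.87). Of 9 T identity genes none was higher or lower (median −0.06), and the pan-T chain Cd3e stood at 530 and 574 CPM.

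The gamma delta type 17 programme had 16 measured genes, 2 higher and 1 lower, with a median of 0.31 beside 0.15 for all genes. The higher genes were Cxcr6, a homing receptor of liver lymphocytes (256 and 591 CPM, 1.21, 1.05 to 1.36), and Il18r1, a chain of the IL18 receptor (47.4 and 96.8 CPM, 1.03, 0.64 to 1.42). Blk, a kinase of B cells and of gamma delta T cells, was the lower one (8.86 and 2.74 CPM, −1.50, −4.07 to 0.03), on 23 and 3 UMIs. Il7r, the receptor chain for IL7, was at 618 and 614 CPM. Il23r, the receptor chain for IL23, had 8 and 0 UMIs, and Il1r1 had 15 and 0, too few to count as measured. IL17-responsive genes were higher in 6 of 7 cases in this class (median 1.29), with S100a8 (3 and 969 UMIs) and S100a9 (6 and 1266 UMIs) in the lead, where 6.5% of all measured genes were higher and 3.14% lower. Without the 4 members that are neutrophil markers, 2 of 3 were higher, Icam1 and Nfkbiz, with a median of 1.15. Neutrophil markers summed to 19.7 CPM in the control and 2516 at day 21 in this class, and their part in the list was not tested.

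At day 4 in T-like cells, 3.46% of all measured genes were higher and 1.64% lower than in the control. Of 8 gamma delta receptor genes measured, 3 were higher and 0 lower, with a median of 0.64 against 0.09 for all genes. They were Trdv4 (1.93 and 7.88 CPM, 5 and 18 UMIs), Tcrg-C4 (37.0 and 86.7 CPM) and Tcrg-V4 (3.47 and 7.45 CPM, 9 and 17 UMIs). Trgv2 stood at −0.10 (−0.49 to 0.27). None of the 9 T identity genes was higher or lower.

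Downstream of the receptor, the genes of IL17 signalling and its brakes were read in endothelial-like cells. At day 21, 5 of 22 measured genes were higher than in the control and 1 was lower, with a median of 0.51 beside 0.10 for all genes, of which 7.82% were higher and 5.08% lower. Tnfaip3, which encodes the NF-kB brake A20, stood at 32.8 CPM in the control, 15.2 on day 4 and 91.2 on day 21. Nfkbiz, which encodes the IL17-induced co-factor IkB-zeta, stood at 66.0, 23.4 and 183 CPM. The others were Traf3 (11.3 and 28.9 CPM in the control and at day 21), Arid5a, which encodes an mRNA-stabilising protein (9.30 and 23.2 CPM), and Traf2 (10.2 and 20.6 CPM).

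Nfkbia, which encodes the NF-kB inhibitor IkB-alpha, was the lower gene at day 21, with 1341, 615 and 397 CPM (−1.76, −1.85 to −1.67). The adaptor gene Traf3ip2 stood at 4.41 and 2.17 CPM (37 and 6 UMIs, −0.93, −2.56 to 0.23), and the transcription factor gene Cebpb at 68.9 and 74.2 CPM. At day 4, where 1.41% of all 11600 measured genes were higher and 1.54% lower, 0 of 22 signalling genes were higher and 4 lower, with a median of 0.06. The 4 were Nfkbiz (−1.49), Cebpb (−1.21), Nfkbia (−1.13) and Tnfaip3 (−1.11). Nfkbiz and Tnfaip3 were thus below the control at day 4 and above it at day 21.

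Of the IL17-responsive genes, 10 of 13 measured in endothelial-like cells were higher at day 21 and 0 were lower, with a median of 3.52 beside 0.10 for all genes, of which 7.82% were higher and 5.08% lower. Of the 10, Lcn2, S100a8, S100a9 and Mmp9 are also neutrophil markers, and without these 4 the count was 6 of 9 with a median of 1.47. The highest ratio was that of Lcn2, which encodes the iron-binding lipocalin 2 (1 and 221 UMIs, 8.81, 6.90 to 14.7), followed by S100a9 (8.27). The neutrophil marker sum that moves with them is given above, and its part in the list was not tested. The selectins, which catch rolling leukocytes, were among the 6. Selp (P-selectin) stood at 12.9 CPM in the control, 12.4 on day 4 and 148 on day 21 (3.52, 3.22 to 3.85), and Sele (E-selectin) had 4 control UMIs and 32 at day 21 (0.477 and 11.6 CPM, 4.45, 3.11 to 6.56).

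The adhesion ligands were higher by less. Vcam1 stood at 63.2, 35.5 and 194 CPM (day 21 over control 1.62, 1.45 to 1.80) and Icam1 at 55.4, 67.1 and 123 CPM (1.15, 0.94 to 1.36). Ccl2, which attracts monocytes, had 4 and 36 UMIs (4.62, 3.29 to 6.72). The neutrophil attractants most tied to IL17 did not pass 2-fold at day 21: Cxcl1 had 106 and 47 UMIs (0.44, −0.10 to 0.94), and Cxcl2 had 26 and 14 (0.73, −0.34 to 1.70). Zc3h12a, which encodes the mRNA-degrading brake Regnase-1, was at 0.59. At day 4, 0 of 9 responsive genes were higher and 3 were lower (Cxcl2 −2.34, Cxcl1 −1.74, Nfkbiz −1.49).

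The promoters of the selectin pair are shown because both genes were higher at day 21 (RefSeq, GRCm38.p6, plus strand, 250 bases before the start, chr1:164047984-164048233 for Sele and chr1:164115014-164115263 for Selp). Capitals mark 1 match in each to the NF-kB core GGGNNNNNCC, which 45.8% of all promoters hold in a window of 250 bases, and, in Sele, 1 match to TATAAA, which 12.4% hold, both strands read.
Sele: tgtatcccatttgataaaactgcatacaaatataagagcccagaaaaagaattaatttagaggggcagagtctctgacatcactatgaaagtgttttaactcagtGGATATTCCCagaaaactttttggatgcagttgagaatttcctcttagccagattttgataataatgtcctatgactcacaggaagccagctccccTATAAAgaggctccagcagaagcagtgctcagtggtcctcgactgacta
Selp: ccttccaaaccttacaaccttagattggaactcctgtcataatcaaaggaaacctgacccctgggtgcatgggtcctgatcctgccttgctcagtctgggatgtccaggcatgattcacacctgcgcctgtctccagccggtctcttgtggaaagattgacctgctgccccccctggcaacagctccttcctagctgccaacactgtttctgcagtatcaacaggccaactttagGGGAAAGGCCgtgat

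**Figure D5:**
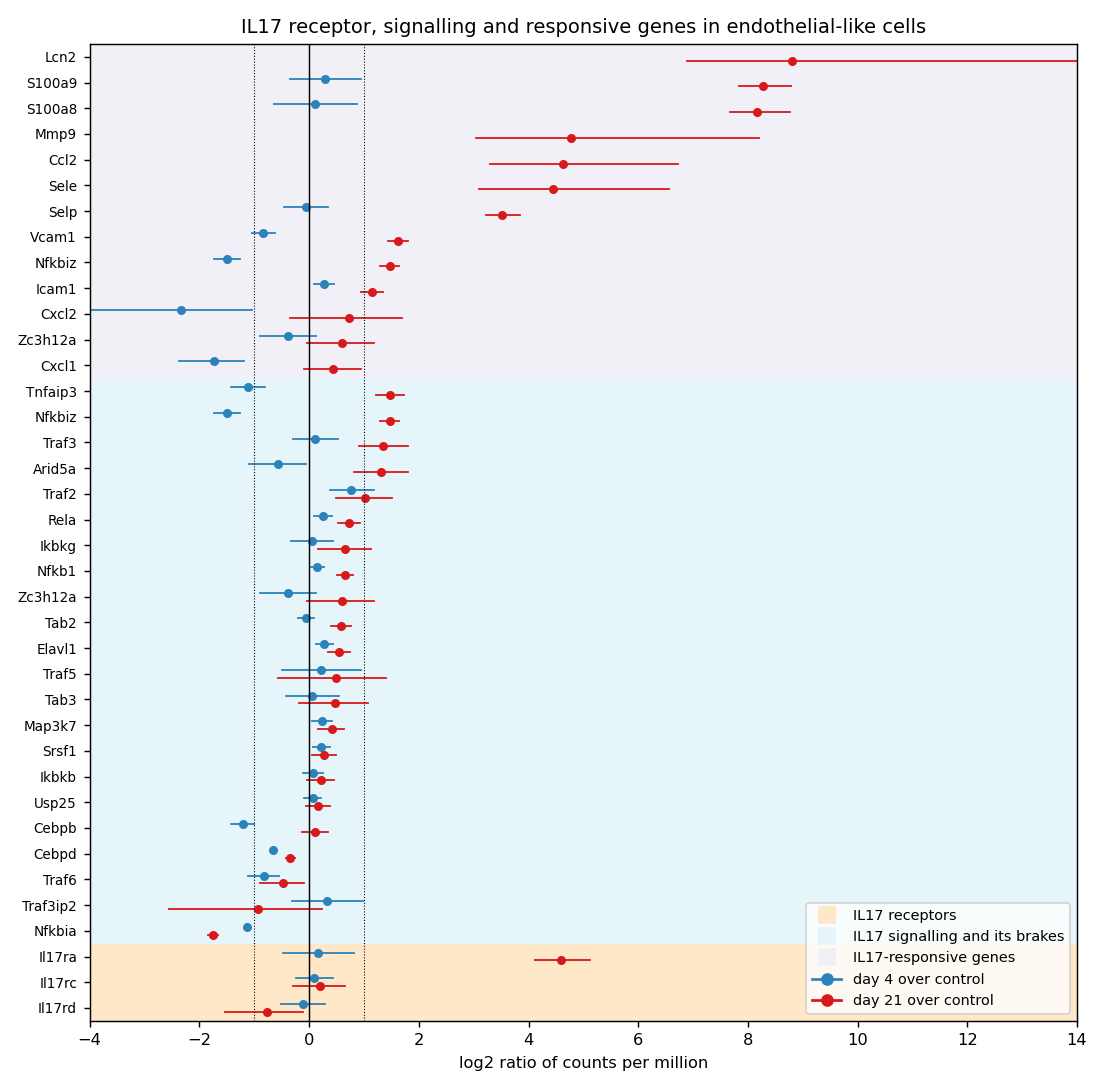
Log2 ratios over control of the measured genes of the IL17 lists in endothelial-like cells, day 4 in blue and day 21 in red, with bars for the 95% interval and dotted lines at a 2-fold difference. The axis is clipped at −4 and 14, and a comparison with under 20 UMIs has no point. Il17ra, Selp and Sele lie far to the right at day 21, and Nfkbia lies to the left at both days.

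Genes of type 17 induction, the cytokines that drive IL17-producing cells and their receptors, had 7 measured members in endothelial-like cells at day 21, of which 3 were higher and 0 lower, with a median of 0.55 (all genes: 7.82% higher, 5.08% lower, median 0.10). Il1r1, the signalling receptor of IL1, stood at 61.5 CPM in the control, 67.6 on day 4 and 233 on day 21 (1.92, 1.75 to 2.09). Il6st, the gp130 chain shared by IL6-type receptors, stood at 1397, 1569 and 3050 CPM (1.13, 1.09 to 1.17). Il1b, a cytokine also abundant in neutrophils, had 10, 18 and 97 UMIs (4.82, 3.94 to 5.99). Tgfb1 stood at 234 CPM in the control and 233 at day 21, with a ratio between −0.13 and 0.13, and Tgfbr2 at 270 and 279 CPM (−0.07 to 0.16).

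Stellate-like cells gave similar counts at day 21, where 6.22% of all measured genes were higher and 5.38% lower. Of 14 IL17-responsive genes 11 were higher and 0 lower (median 4.43), and without the 4 neutrophil markers 7 of 10 were higher with a median of 1.90. Unlike in endothelial-like cells, Cxcl1 was among them (13.8 and 69.9 CPM, 2.33, 1.89 to 2.81), beside Ccl2 (10.9 and 292 CPM, 4.73, 4.32 to 5.20). The difference between the classes was not tested. Of 22 signalling genes 6 were higher and 2 lower (median 0.29), with Tnfaip3 at 1.81, Arid5a at 1.66, Nfkbia at −1.61 and Cebpb at −1.19. Endothelial markers summed to 8292 CPM in control stellate-like cells and 11514 at day 21, which moved with Selp (15 and 103 UMIs) and Sele (1 and 32 UMIs) in this class, and their part in those values was not tested.

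In Kupffer-like cells at day 21, 6.16% of all measured genes were higher and 5.17% lower. Their 14 IL17-responsive genes split, with 6 higher and 5 lower (median 0.82), and without the 4 neutrophil markers 2 of 10 were higher and 5 lower (median −0.24). The neutrophil transcript S100a8 stood at 4.43 CPM in the control and 2542 at day 21 in this class, and Ngp had 0 and 637 UMIs, and the part of neutrophil RNA in these counts was not tested. The higher ones were S100a8, S100a9, Lcn2, Mmp9, Ccl2 (4.15 and 46.4 CPM) and Ccl7 (3.05 and 12.8 CPM). Cxcl2 (997 and 109 CPM, −3.18, −3.41 to −2.97), Cxcl1 (58.1 and 11.6 CPM, −2.29), Mmp13, Vcam1 and Zc3h12a were lower. Of 21 signalling genes 3 were higher and 3 lower.

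The genes whose level followed Il17ra and Trdc most closely over 28 sums of class and library were named by Pearson's r on log2(CPM + 10), among 10137 genes. These are descriptions, since sums of the same library share depth and free RNA. Closest to Il17ra were Rap2c (0.81), Zbtb7b (0.79) and Ppp1r18 (0.77). Closest to Trdc were Cd160 (0.97), Cd3g (0.96) and Trac (0.96), genes of T and natural killer cells. The sums span all classes, so r also reflects which classes hold a gene at all, and the values for Il17ra and Trdc are not compared. Trac stood at 463, 420 and 394 CPM in T-like cells of the control, day 4 and day 21. A high r thus does not mean that it moved with Trdc over the libraries (Trdc levels above).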

How the data were processed

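Each library was deposited by the authors as raw UMI counts for 31053 genes (software version 3.1.0, per the file headers; mm10, per the submitters' processing notes; single cell 3' version 2 protocol, per the labels' protocols). Other steps are not given in the sources used here. Barcodes below 200 genes or above 20% mitochondrial UMIs were dropped, then doublets called by Scrublet (40, 95 and 725), in all 27.7%, 41.0% and 19.4% of the barcodes of the control, day 4 and day 21. Counts were scaled to 10000 per cell, and 2000 variable genes, 30 components, 15 neighbours and Leiden clustering at resolution 1 gave the clusters. A cluster took a name with at least 3 markers found in 10% of its cells and 2-fold over the rest, unless its 10 leading genes favoured another class. Names were rebuilt here, not taken from the authors.

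Raw counts were summed per class and library. Log2 ratios add 0.5 UMIs to each sum and carry exact conditional binomial intervals, levels carry Poisson intervals, and shares carry Clopper-Pearson intervals, all at 95%. A count of 0 allows up to 3 UMIs or cells. No test across libraries was possible. Intervals cover counting error only. The log2 ratio and its interval were tested on simulated Poisson counts of endothelial-like sums, which hold no clumping of UMIs within cells. Clustering, naming and thinning were not tested in this way.

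The named genes are the 5 members and, per list, the 2 members with the highest and the 2 with the lowest ratio, with further genes named for their roles after their values were seen. Members, lists and tests were chosen with earlier results of these data known. Positions are from GENCODE on GRCm38, and promoters from RefSeq, which matched 3 of the 5 members. Tools were Python 3.11.15, Scanpy 1.11.5, NumPy 2.4.6, SciPy 1.17.1, pandas 2.3.3, igraph 0.11.9 and matplotlib 3.10.9.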

Additional observations from a re-analysis of the deposited data

Results flagged for a closer look

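Trdc in T-like cells moved in opposite directions at the 2 times: the log2 ratio over control was 0.53 at day 4 and −1.29 at day 21. The direction at day 4 turned without the filter on cells (−0.27) and with classes from each cell's own markers (−0.33), and cluster 5, a part of the class, stood at −0.38. Each time is 1 library, both ratios share the control library, and the difference between them was not tested.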

How the results depend on the processing

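The 19 results were recomputed under 231 alternatives in all, of which 211 left the value within its interval or the count within 1.5 times, 17 moved it and 3 reversed it. The 3 reversals were Il17ra in Kupffer-like cells at day 4 after thinning to 1000 UMIs (−0.25), and Trdc in T-like cells at day 4 without a cell filter (−0.27) and with classes from each cell's own markers (−0.33). Classing by own markers also gave 4.11 for Il17ra in endothelial-like cells and −1.99 for Trdc in T-like cells, both day 21 over control. For Il17ra in stellate-like cells at day 21, no cell filter gave 3.39 and thinning 3.66. Thinning gave −0.29 for Il17rc in endothelial-like cells, and a mitochondrial limit of 10% gave 0.29 for Trdc at day 4. Leaving out the 4 neutrophil markers gave 6 responsive genes in endothelial-like cells. A line at 1.5-fold in place of 2-fold put 18.5% of all genes higher there and 9 signalling genes in place of 5. In stellate-like cells the 11 responsive genes became 7 with classes from own markers, 5 after thinning and 7 without the neutrophil markers. Without those markers the 6 responsive genes became 2 in Kupffer-like and 2 in T-like cells. The cause of the other changes was not tested. The alternative without S100a8, S100a9 or Ptprc UMIs could not be run, with 12 day 21 endothelial-like cells, nor could 3 for conventional dendritic-like cells. The alternatives that leave out cells with Ptprc, Csf3r, Cxcr2 or Retnlg UMIs, the 4 markers or the cell with most Trdc UMIs were chosen after seeing the data. No paired analysis was possible because each group is 1 library. Depth limits Il17a and Il17f, with at most 3 UMIs in a library.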
